A study of Mus musculus with 20 samples.

Results

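The comparison described here set the livers of 5 mice fed a CL diet with vitamin E (CL + VE) against the livers of 5 mice fed normal chow (NC), which is 10 of the study's 20 livers and 2 of its 4 groups. The livers were chosen by the diet in the title of each sample, and the normalization and the test of this comparison left out the other 10 arrays, which came from mice on the CL diet alone or with astaxanthin. All were male C57BL/6J mice (the strain field spells the name C56BL/6J), 7 weeks old when feeding began and kept on their diet for 12 weeks, with livers taken after 2 h without food. The CL diet drew 60% of its calories from fat and contained cholesterol at 1.25% besides sodium cholate at 0.5%, the CL + VE diet held 0.02% vitamin E too, and the chow was CRF-1. Fat, cholesterol, cholate, vitamin E and the base feed all differed between these 2 groups, so their parts in any difference cannot be told apart within this comparison.

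Diets rich in fat and cholesterol with a bile salt are used in mice as a model of non-alcoholic steatohepatitis, in which fat-laden hepatocytes are joined by inflammatory macrophages and by scar-forming stellate cells. Hepatocytes that take up much cholesterol shut down their own sterol synthesis through the SREBP2 transcription factor, export sterols through transporters that the LXR receptors switch on, and restrain bile acid synthesis through the FXR receptor. Vitamin E is a fat-soluble antioxidant that the liver loads onto lipoproteins with the alpha-tocopherol transfer protein.

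Each liver was measured on 1 Affymetrix Mouse Genome array, on which a gene is read by 1 or more probe sets, and values are given as the log2 of the probe set's signal after the 10 arrays were brought to a common distribution. Log2 differences are CL + VE minus NC with their standard error, from limma with p-values adjusted over all 45037 probe sets (Benjamini-Hochberg), and a gene is called where that adjusted p was under 0.05. Of these probe sets, 2204 were higher and 1933 lower in the CL + VE livers, so that 53.3% of the called ones were higher. That share was 84.4% when signals were left unscaled, 47.0% after centring on medians and 62.6% after trimmed-mean scaling, and without scaling the median of all probe sets rose by 0.17. With 1 probe set per gene, 2308 of 18193 genes were called, or 12.7%, of which 1326 (7.29% of all genes) were higher and 982 (5.4%) lower. These shares are the background given for the counts of each gene group below, and group medians are log2 differences less the all-gene median. The gene lists were chosen with earlier results of these data known, so a count above its share is a description and no test. Among called genes, 583 rose by at least 1 on the log2 scale and 170 fell by at least 1.

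Hepatocyte genes were bright in both groups. Alb, the main plasma protein made by hepatocytes, read 13.30 to 13.58 in the NC livers and 13.31 to 13.53 in the CL + VE livers. Among 21 measured hepatocyte markers, 2 were higher and 2 lower, with a median of -0.02 (-0.25 where each array was scaled by 1 factor instead). With no scaling or median centring 0 were higher, and 1 was higher without CL + VE replicate 1, 2, 3 or 4 or NC replicate 2, 3 or 4. Marker genes of muscle, pancreas and adipose tissue gave no call in either direction. Most of them lay under the median signal of the array (6 of 6, 4 of 5 and 3 of 4), so this says little. Of 6 gut and gall bladder genes, 1 was higher (Fabp2, by 0.91, SE 0.09) and 1 lower, both without overlap. Some control probe sets of the array also separated the groups. The 3′ to 5′ log2 ratio of the spiked Dap control was 2.96 ± 0.15 in NC and 1.07 ± 0.43 in CL + VE arrays (SD, n = 5 each, exact permutation test, p = 0.00794, the smallest that 5 against 5 allows), and that of the liver's own Gapdh was 0.57 ± 0.14 against -0.033 ± 0.12 (exact p = 0.00794). The 18S ribosomal RNA probe set stood 5.27 ± 0.56 above the array median in NC and 7.29 ± 0.30 in CL + VE arrays (exact p = 0.00794). Of the other spiked controls, Thr separated the groups too (3.07 ± 0.19 in NC against 2.29 ± 0.22 in CL + VE arrays). The ratios of Phe (exact permutation test, p = 0.198) and Lys (exact permutation test, p = 0.778) overlapped between the groups. The measures that separated the groups did so along the same line as diet, although the spiked controls do not come from the liver. The part of such array differences in the results below cannot be told apart from that of diet. CL + VE replicate 5 also stood apart from the other 4 CL + VE livers in macrophage and matrix genes, and values without it are given where they matter.

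**Figure D1:**
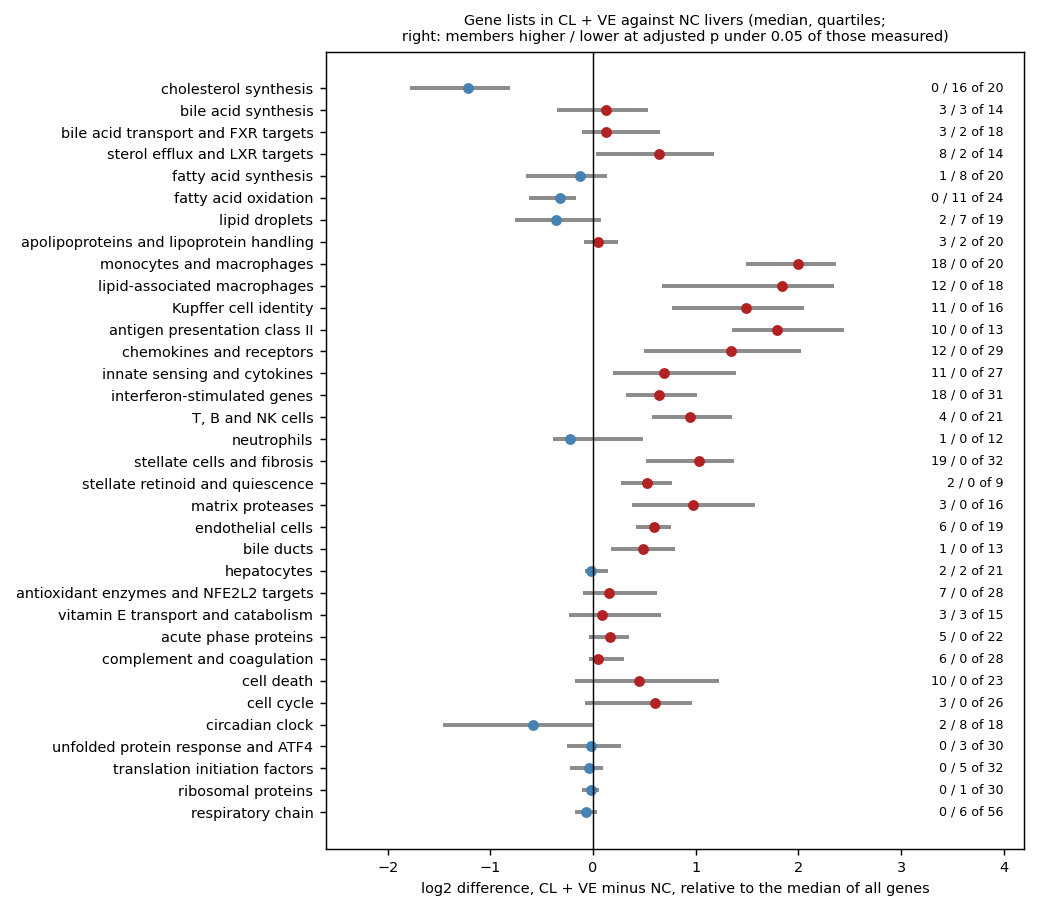
Median log2 difference (dots) and quartiles (bars) of the measured members of 34 gene lists, CL + VE minus NC less the all-gene median, and the members called higher and lower at the right. Red dots lie above and blue dots below 0, with cholesterol synthesis farthest to the left at -1.22 and monocytes and macrophages farthest to the right at 2.00.

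Cholesterol synthesis was low throughout in the CL + VE livers. None of 20 measured genes was called higher and 16 were called lower (median -1.22, range -3.09 to -0.15), and 15 of the 20 had groups that did not overlap, against 12.3% of all genes. Sqle, squalene epoxidase, an oxygen-dependent control step of the pathway, read 6.28, 7.21, 6.97, 6.67 and 6.50 in the NC livers and 3.23, 3.68, 3.97, 3.16 and 4.15 in the CL + VE livers. Every CL + VE liver lay far under the lowest NC liver, and the gene fell by 3.09 ± 0.25 (SE, adjusted p = 1.25e-05), which is 8.5-fold. Idi1, which isomerizes the 5-carbon building blocks of sterols, read 8.30, 9.02, 8.30, 8.59 and 8.71 against 5.89, 5.58, 5.34, 5.21 and 5.60. It fell by 3.06 ± 0.16 (adjusted p = 8.23e-07), again with a wide gap between the groups.

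Further along the pathway the falls were of the same kind. Cyp51, the lanosterol demethylase, fell by 2.43 (SE 0.16), Msmo1, a sterol methyl oxidase, by 2.28 (SE 0.23), and Fdps, which makes farnesyl diphosphate, by 1.80 (SE 0.14), all without overlap. Stard4, a carrier of cholesterol inside cells, fell by 1.75 (SE 0.12, adjusted p = 3.53e-06). Srebf2, the gene of the SREBP2 factor itself, read 6.10, 6.56, 6.66, 7.04 and 6.78 in NC livers and 5.78, 5.08, 5.69, 5.70 and 5.68 in CL + VE livers. Its fall of 1.05 (SE 0.19, adjusted p = 0.00311) left the groups close at the edges, at 5.78 and 6.10. The mean log2 signal over the 20 genes lay between 7.04 and 7.13 in all 5 CL + VE livers and between 8.28 and 8.69 in the NC livers, so CL + VE replicate 5 did not differ from its group here. Hmgcs1, Mvk, Ebp and Sc5d, chosen here because they were the measured members without a call, gave differences of -0.49, -0.86, -0.15 and -0.25.

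SREBP2 binds sterol regulatory elements in the promoters of these genes. The core searched for, TCACNCCAC on either strand, was found in the promoter window (the bases just before and after the start) of 1 of 17 genes of the list that have a window, against 1.44% of all 27025 genes with one. The stretch of Hmgcs1 that holds it is shown because it is the single match, with the core in capitals (RefSeq, GRCm38.p6, chr13:119690189-119690248, plus strand). Hmgcs1 itself read 0.49 lower and missed the threshold (adjusted p = 0.075), whereas 12 of the 15 measured genes without this exact core were called lower.
Hmgcs1: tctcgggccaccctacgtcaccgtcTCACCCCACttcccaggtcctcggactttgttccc

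**Figure D2:**
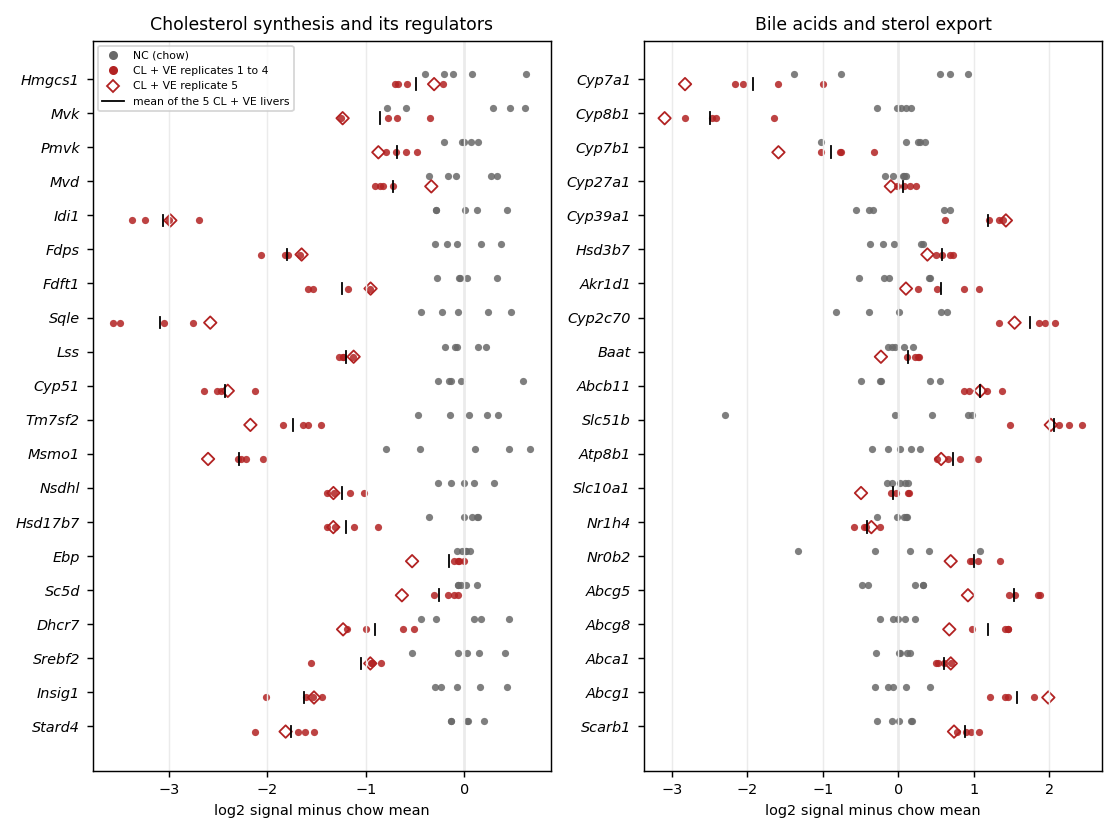
Log2 signal of each liver minus the NC mean of the gene, for genes of cholesterol synthesis in pathway order (left) and of bile acid and sterol handling (right). NC livers are grey, CL + VE livers red with replicate 5 as an open diamond, and the black line is the CL + VE mean, which is -3.06 for Idi1 and 1.53 for Abcg5.

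Bile acid genes moved in both directions. Of 14 measured synthesis genes, 3 were higher and 3 lower (median 0.13, or -0.08 with 1 scaling factor per array). Cyp8b1, the enzyme that directs synthesis to cholic acid, read 12.64, 12.57, 12.51, 12.70 and 12.24 in NC livers and 9.71, 10.06, 10.88, 10.11 and 9.43 in CL + VE livers. It fell by 2.49 (SE 0.20, adjusted p = 1.44e-05), 5.62-fold, with no overlap. Cyp7a1, the rate-limiting enzyme of the classic pathway, read 9.80, 11.24, 11.48, 11.12 and 9.18 against 8.97, 9.57, 8.50, 8.40 and 7.74. It fell by 1.93 (SE 0.42, adjusted p = 0.00963), but the NC livers themselves ranged from 9.18 to 11.48 and NC replicate 5 lay under CL + VE replicate 2. Cyp2c70, which makes the muricholic acids of mice, rose by 1.75 (SE 0.24), and Cyp39a1, an oxysterol hydroxylase, by 1.19 (SE 0.24).

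Transport genes that FXR is known to switch on were higher in part. Abcb11, the bile salt export pump of the canalicular membrane, read 10.55, 9.63, 9.90, 9.90 and 10.69 in NC livers and 11.31, 11.51, 11.07, 11.01 and 11.22 in CL + VE livers. It rose by 1.09 (SE 0.18, adjusted p = 0.00178), and every CL + VE liver was above every NC liver. Atp8b1, a flippase of the same membrane, rose by 0.72 (SE 0.13). Slc51b, a subunit of the basolateral exporter, differed by 2.06 (SE 0.54, adjusted p = 0.0273), and its adjusted p rose to between 0.052 and 0.067 when CL + VE replicate 1, 2, 3 or 5 was left out. Nr1h4, the gene of FXR, fell by 0.41 (SE 0.09, adjusted p = 0.0117). Over the 18 measured genes of this list, 3 were higher and 2 lower. The counts were 6 higher without NC replicate 5, 2 higher and 1 lower without CL + VE replicate 1, 2 or 5, and 1 lower without NC replicate 1, 2 or 4 (0 lower with no scaling).

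Sterol export genes rose. Of 14 measured genes of sterol efflux and LXR response, 8 were higher and 2 lower (median 0.64, or 0.50 with 1 scaling factor per array), and with no scaling 7 were higher and 0 lower. Abcg5, which with Abcg8 forms the pump that sends sterols into bile, read 9.23, 9.85, 9.95, 9.95 and 9.14 in NC livers and 11.48, 11.18, 11.09, 11.50 and 10.55 in CL + VE livers. Abcg5 rose by 1.53 (SE 0.20, adjusted p = 0.00035) and its partner Abcg8 by 1.19 (SE 0.15, adjusted p = 0.00028), both without overlap. Abcg1 and Abca1, which load cholesterol onto HDL particles, rose by 1.58 (SE 0.16) and 0.61 (SE 0.09), and the HDL receptor Scarb1 by 0.89 (SE 0.10). Npc1 and Nceh1, picked out here as the 2 members that were lower, fell by 0.49 and by 0.71. Npc1 moves cholesterol out of lysosomes and Nceh1 splits cholesterol esters.

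Genes of fatty acid oxidation were lower where they were called. In that list, 11 of 24 measured genes were lower and none higher (median -0.33). With median centring 18 were lower (median -0.53) and with no scaling 3, and the count was 7 when NC replicate 1 or CL + VE replicate 1, 2 or 4 was left out. Ppara, the nuclear receptor that drives this pathway, read 10.85, 10.70, 10.76, 10.81 and 10.74 in NC livers and 10.06, 10.001, 10.11, 10.05 and 10.07 in CL + VE livers. The livers of each group lay close together, and Ppara fell by 0.71 (SE 0.06, adjusted p = 3.06e-05). Slc25a20, the carnitine carrier of the inner mitochondrial membrane, fell by 0.58, Acaa1a, a peroxisomal thiolase, by 0.74, and Eci2, an enoyl isomerase, by 0.75. Cpt1a, the carnitine transferase at the entry to mitochondria, gave -0.40 (SE 0.12) and missed the threshold (adjusted p = 0.0576), passing it without NC replicate 5 or CL + VE replicate 3, with the replicate number as a block (adjusted p = 0.0082), with median centring (0.0063), with trimmed-mean scaling (0.019) and in the model of all 20 arrays (0.0167).

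For fatty acid synthesis, 1 of 20 measured genes was higher and 8 were lower (median -0.13), or 5 lower with no scaling, and 2 were higher without CL + VE replicate 5 or NC replicate 5. Acacb, the acetyl-CoA carboxylase of the mitochondrial surface, read 8.14, 7.88, 8.23, 8.04 and 7.45 against 5.67, 6.38, 6.64, 5.11 and 6.05, and fell by 1.98 (SE 0.24, adjusted p = 0.000273). The other of its 2 probe sets went the opposite way, and the mean over both was -0.57. Me1, which supplies NADPH, fell by 1.29 (SE 0.16) and the elongase Elovl6 by 0.88 (SE 0.13). Fasn, the fatty acid synthase, read 7.87 to 8.41 in NC and 7.97 to 8.16 in CL + VE livers, with a difference of -0.05 (adjusted p = 0.834). Scd1, the main hepatic desaturase, gave 0.12 (adjusted p = 0.452), with sign reversed at -0.20 under median centring. Scd2, a desaturase found outside hepatocytes as well, was the 1 gene called higher, with 5.26, 4.92, 5.30, 5.47 and 5.48 in NC and 7.25, 6.90, 6.56, 7.39 and 8.47 in CL + VE livers (a rise of 2.03, SE 0.28).

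Lipid droplet genes were lower in 7 and higher in 2 of 19 measured (median -0.36), but lower in 2 and higher in 1 with no scaling. Pnpla2, the first lipase of triglyceride breakdown, fell by 0.72 (SE 0.14), Mgll, the last one, by 0.58 (SE 0.11), and Fitm2, which shapes droplets at the endoplasmic reticulum, by 0.77 (SE 0.09). Among 20 apolipoprotein and lipoprotein genes, 3 were higher and 2 lower, with a median of 0.05 that became -0.27 with 1 scaling factor per array. With median centring, 1 of these was higher and 4 were lower. Lpl, lipoprotein lipase, which adult hepatocytes make little of and macrophages make, read 9.03, 8.44, 8.86, 8.61 and 8.23 in NC livers and 11.25, 11.09, 11.26, 11.15 and 12.23 in CL + VE livers. It rose by 2.76 (SE 0.20, adjusted p = 6.94e-06). Lipg, endothelial lipase, fell by 2.29 (SE 0.20, adjusted p = 2.79e-05), and Angptl4, a secreted inhibitor of Lpl, by 0.78 (SE 0.08). The other of the 2 Angptl4 probe sets went the opposite way, and the mean over both was -0.38.

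Genes of monocytes and macrophages were higher almost throughout. In whole-liver RNA, more cells of a type and more RNA per cell cannot be told apart, here and for each cell type below. Of 20 measured monocyte and macrophage genes, 18 were higher and none lower, with a median of 2.00 and 17 genes without overlap. Lyz2, the lysozyme of myeloid cells, read 7.22, 7.55, 8.32, 8.003 and 7.11 in NC livers and 11.14, 10.37, 10.55, 9.88 and 11.94 in CL + VE livers. It rose by 3.14 (SE 0.32, adjusted p = 8e-05), 8.79-fold. The probe set of Lyz1 rose by 3.31, but the 2 lysozyme genes are near copies and their probes may bind both. Ccr2, the receptor that brings monocytes to tissue, read 3.42, 3.65, 1.81, 3.62 and 3.37 against 5.67, 5.62, 5.45, 5.32 and 6.98. It rose by 2.63 (SE 0.40, adjusted p = 0.00108), and Ptprc, the pan-leukocyte protein CD45, by 1.87 (SE 0.23).

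Genes of macrophages that take up lipid were higher too, with wide spread among the CL + VE livers. Of 18 measured, 12 were higher and none lower (median 1.83), and the same count of 12 came without CL + VE replicate 5. Gpnmb, a glycoprotein of lysosome-rich macrophages, read 3.65, 2.91, 3.70, 3.33 and 2.69 in NC livers and 7.62, 7.26, 7.21, 6.89 and 11.02 in CL + VE livers. It rose by 4.74 (SE 0.61, adjusted p = 0.000346), or by 3.98 without CL + VE replicate 5. Mmp12, macrophage elastase, read 0.09, 0.26, 3.58, -0.24 and 2.91 against 6.16, 6.12, 6.03, 5.85 and 9.42. Its difference of 5.39 (SE 0.82, adjusted p = 0.00117) was the largest among called genes of at least median signal whose groups did not overlap (4.70 without CL + VE replicate 5), and since its NC values lie in the dim range of the array the fold is poorly fixed from below. Lgals3, galectin 3, rose by 3.03 (SE 0.49). Trem2, the lipid receptor that gives such cells their usual name, read 2.32, 2.62, 1.58, 3.44 and 0.66 against 3.09, 2.83, 4.42, 3.17 and 7.69, so that a single CL + VE liver was clearly high and the gene was not called (2.12, SE 0.84, adjusted p = 0.141).

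The markers of resident Kupffer cells were also higher as a group, with 11 of 16 called and none lower (median 1.49). Clec4f, a lectin found on Kupffer cells, read 7.50, 7.82, 9.12, 8.44 and 7.40 in NC and 9.37, 9.50, 9.91, 9.14 and 9.10 in CL + VE livers. It rose by 1.35 (SE 0.27, adjusted p = 0.00671), although NC replicate 3 at 9.12 just exceeded CL + VE replicate 5. Vsig4, a complement receptor, rose by 2.34 (SE 0.33) and C1qa and C1qc, chains of complement C1q, by 2.23 (SE 0.29) and 2.56 (SE 0.37). Timd4, a marker of long-lived resident cells, read 4.26, 4.10, 5.85, 5.28 and 3.89 against 7.87, 5.80, 6.55, 5.75 and 4.56. It missed the threshold (1.43, SE 0.52, adjusted p = 0.108) and passed it without CL + VE replicate 5 (adjusted p = 0.031), the liver with the lowest Timd4 and the highest Gpnmb of its group. NC replicate 3 was the highest chow liver for this list, with a mean of 8.11 against 6.65 to 7.68 in the others.

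**Figure D3:**
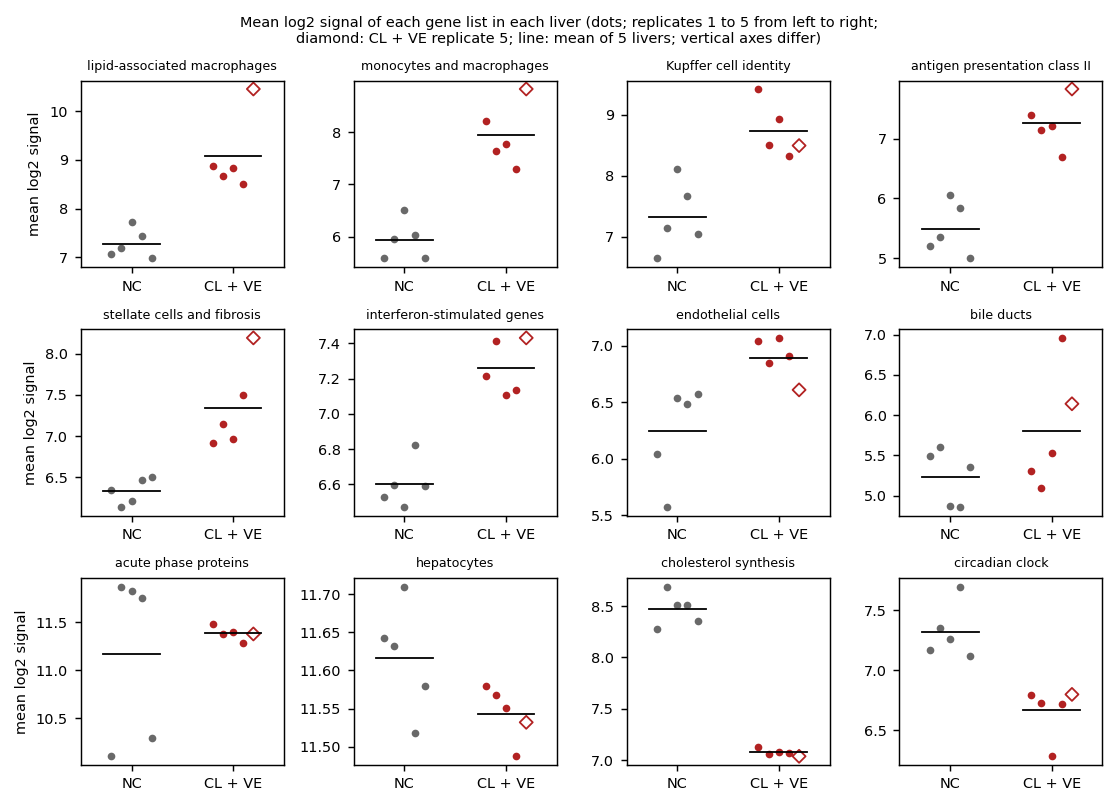
Mean log2 signal over the members of 12 gene lists in each liver, NC in grey and CL + VE in red, with CL + VE replicate 5 as a diamond and the group mean as a line. Replicate 5 reads 10.45 for lipid-associated macrophages against 8.51 to 8.87 in the other CL + VE livers, while it lies within its group for cholesterol synthesis.

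Antigen presentation by MHC class II was higher in every CL + VE liver. Of 13 measured genes, 10 were higher and none lower (median 1.79). Cd74, the invariant chain, read 7.00, 7.11, 7.58, 7.43 and 7.34 in NC livers and 10.38, 10.32, 9.93, 9.79 and 11.06 in CL + VE livers. The groups were far apart, and Cd74 rose by 3.002 (SE 0.20, adjusted p = 2.57e-06), 8.01-fold. The class II chains H2-Eb1, H2-Ab1 and H2-Aa rose by 2.70 (SE 0.24), 2.43 (SE 0.22) and 2.25 (SE 0.20).

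Among 29 measured chemokines and their receptors, 12 were higher and none lower (median 1.34), with 11 of the 29 in the dim range of the array. Ccl2, the ligand of Ccr2, read -0.58, 2.22, 1.08, -0.33 and 0.14 against 4.68, 4.55, 4.78, 3.91 and 5.84. The NC values are dim and scattered, and the rise of 4.24 (SE 0.60, adjusted p = 0.000654) is read with that limit. Cxcl9, an interferon-gamma-induced attractant of T cells, rose by 2.85 (SE 0.34) and Ccl5 by 2.00 (SE 0.22). Innate sensors were higher in 11 of 27 and lower in none, among them Cd14, the endotoxin co-receptor, with a rise of 1.94 (SE 0.29), and Casp1, the inflammasome protease, with a rise of 1.40 (SE 0.20).

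Il1b and Tnf, cytokines of acute inflammation, gave no call. Il1b read 5.46, 5.43, 5.09, 4.76 and 5.44 in NC and 6.57, 5.85, 6.04, 5.47 and 5.73 in CL + VE livers. The groups were just separate, with a difference of 0.69 (SE 0.22, adjusted p = 0.0624) that passed the threshold without CL + VE replicate 4 (adjusted p = 0.043). Tnf read between 1.12 and 3.62 in NC and between -0.20 and 3.89 in CL + VE livers (0.05, SE 0.83), in the dim range of the array. Lymphocyte markers were higher in 4 of 21 and lower in none, with 11 dim: Klrd1 of natural killer cells by 1.96 (SE 0.33), Ms4a1 of B cells by 1.48 (SE 0.33), Cd3g of T cells by 1.26 (SE 0.29) and Jchain of plasma cells by 0.95 (SE 0.19). Of 12 neutrophil genes, Csf3r was the single one called, at 2.28 (SE 0.59, adjusted p = 0.0254), and S100a9 gave -0.48 (adjusted p = 0.61). The Csf3r call was lost without CL + VE replicate 1, 4 or 5 or NC replicate 1 or 4.

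Interferon-stimulated genes were higher by a smaller amount, in 18 of 31 measured with none lower (median 0.65). Gbp2, a guanylate-binding protein that attacks membranes of intracellular microbes, read 5.76, 5.31, 4.76, 5.99 and 5.65 in NC and 8.04, 7.55, 7.45, 6.78 and 7.78 in CL + VE livers. It rose by 2.02 (SE 0.25, adjusted p = 0.000251). Bst2, or tetherin, which holds budding virus at the cell surface, read 9.42, 9.73, 10.02, 9.71 and 9.82 against 10.58, 10.57, 10.53, 10.69 and 10.64. Its rise of 0.86 (SE 0.10, adjusted p = 0.000128) came with CL + VE livers that lay between 10.53 and 10.69. Rtp4 and Trim30a rose by 1.08 (SE 0.10) and 1.003 (SE 0.14), while Ifit1, Rsad2 and Ifit3 gave 0.28, 0.47 and 0.45 with adjusted p of 0.50, 0.13 and 0.084 and are named here because their promoters match.

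Interferon-stimulated response elements bind the STAT and IRF factors. The core GAAANNGAA, on either strand and with overlapping matches allowed, was in the promoter window of 15 of 26 interferon genes that have one (57.7%) against 9.76% of all genes. Stretches of 60 bases with 1 core each in capitals are shown for 3 genes that rose and for Ifit1, which was not called. All are from RefSeq on GRCm38.p6 and each is written along its own gene. The Bst2 stretch holds a further match that overlaps the marked one, and the Ifit1 stretch holds further matches left in lower case. They lie at chr3:142620580-142620639 (Gbp2, plus strand), chr8:71537562-71537621 (Bst2, minus strand), chr7:104465194-104465253 (Trim30a, minus strand) and chr19:34640780-34640839 (Ifit1, plus strand).
Gbp2: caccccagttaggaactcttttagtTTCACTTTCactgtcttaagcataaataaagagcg
Bst2: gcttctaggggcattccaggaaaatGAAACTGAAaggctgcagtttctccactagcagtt
Trim30a: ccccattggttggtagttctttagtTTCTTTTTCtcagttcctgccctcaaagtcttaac
Ifit1: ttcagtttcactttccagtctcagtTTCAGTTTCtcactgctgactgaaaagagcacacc
Gbp2, Trim30a and Ifit1 hold the core on the opposite strand. Of the measured genes, 6 of 13 with the core were called higher (median log2 difference 0.47), and 8 of 11 without it (median 0.85).

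**Figure D4:**
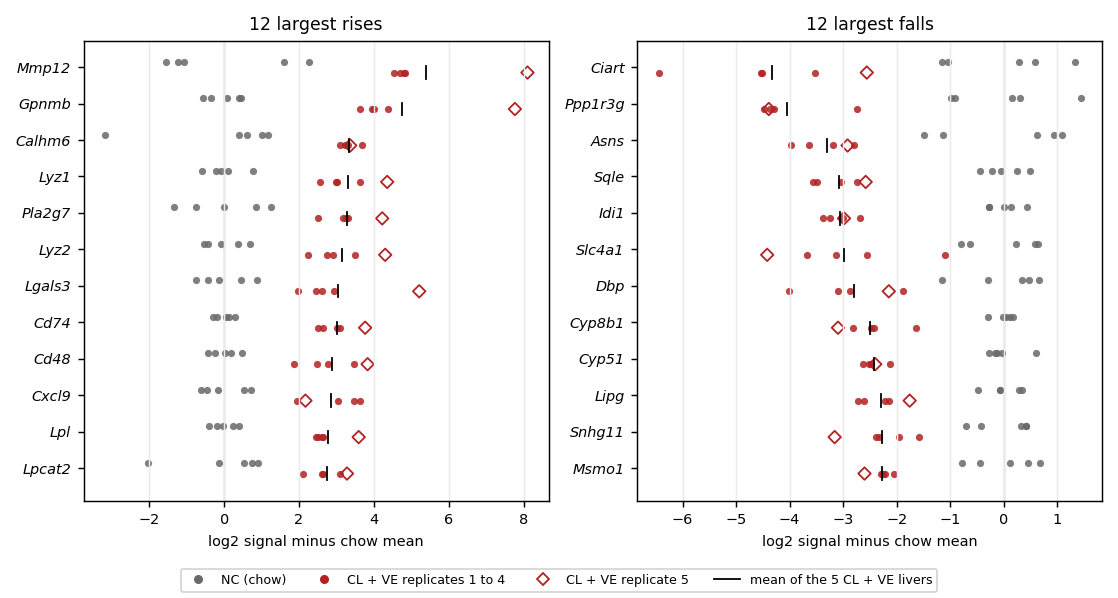
The 12 largest rises and 12 largest falls, as log2 signal of each liver minus the NC mean of the gene. Eligible were called genes whose mean signal over the 10 arrays reached the median of all probe sets and whose groups did not overlap. Some had 1 group under that median (3.93): NC means were 2.97 for Calhm6 and 3.26 for Cd48, and the Ciart mean in CL + VE was 2.23. NC livers are grey, CL + VE livers red with replicate 5 as a diamond, and the black line is the CL + VE mean, from 5.39 for Mmp12 to -4.32 for Ciart.

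Stellate cell and fibrosis genes were higher in 19 of 32 measured and lower in none (median 1.03). The count was 16 without CL + VE replicate 5 and 12 without NC replicate 3, so the number depends on single livers. Col1a1, the main chain of scar collagen, read 3.83, 3.94, 3.48, 4.28 and 3.94 in NC livers and 4.74, 4.85, 4.85, 4.94 and 6.72 in CL + VE livers. It rose by 1.32 (SE 0.36, adjusted p = 0.0318), or by 0.94 without replicate 5, and its adjusted p was 0.058 to 0.072 without NC replicate 1, 2 or 3. Both of the 2 Col1a1 probe sets were called higher, with a mean difference of 2.35, so the size depends on the probe set. Timp1, an inhibitor of collagen-degrading enzymes, read 3.40, 3.32, 3.29, 3.49 and 3.08 against 4.58, 5.08, 5.32, 4.84 and 6.93. Its rise of 2.04 (SE 0.38, adjusted p = 0.00408) held in each leave-one-out fit, as did those of Col3a1 (1.94, SE 0.35), Col14a1 (1.57, SE 0.20) and Vim, vimentin (1.79, SE 0.22).

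Acta2, smooth muscle actin, the usual mark of activated stellate cells, was not called. It read 6.11, 6.15, 6.04, 6.21 and 5.83 in NC and 6.00, 7.13, 6.39, 9.04 and 6.70 in CL + VE livers (0.98, SE 0.41, adjusted p = 0.17), with CL + VE replicate 4 far above the rest. That liver also had the highest mean over 13 bile duct genes, 6.96 against 4.86 to 6.14 in the other 9. Its mean was the highest too for adipose genes (5.92, others 3.56 to 5.17) and for gut and gall bladder genes (5.82, others 4.51 to 5.52). The part of duct or other tissue in the Acta2 value was not tested. Of the 3 Acta2 probe sets, 2 had a positive difference, and the mean difference over all 3 was 0.10. Among bile duct genes only Krt23, a keratin, was called, with 6.60, 5.14, 4.81, 5.96 and 5.57 in NC and 7.52, 7.75, 8.32, 8.28 and 7.50 in CL + VE livers (a rise of 2.26, SE 0.29). Of 9 measured genes of stellate retinoid storage and quiescence, 2 were higher and 0 lower, and 0 had groups that did not overlap. The count of higher genes was 1 to 4 when 1 liver was left out. Among the 2 was Lrat, which stores retinoid in quiescent stellate cells and rose by 0.96 (SE 0.20). Matrix proteases were called higher in 3 of 16 (6 with trimmed-mean scaling): Mmp12, Mmp2 (1.22, SE 0.22) and Plat (1.66, SE 0.41), the last not called without CL + VE replicate 4 (adjusted p = 0.059) or NC replicate 2. Endothelial genes were higher in 6 of 19 and lower in none, among them the scavenger receptor Stab2 (0.74, SE 0.12), and the count was 2 or 3 without NC replicate 1 or 2 or CL + VE replicate 1, 2 or 3, and 12 with no scaling.

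The circadian clock genes showed some of the largest falls. Of 18 measured, 8 were lower and 2 higher (median -0.59). Ciart, a repressor of the clock, read 5.41, 6.84, 7.13, 7.89 and 5.51 in NC and 2.01, 2.03, 0.11, 3.02 and 3.99 in CL + VE livers. It fell by 4.32 (SE 0.64, adjusted p = 0.000941), and its CL + VE mean of 2.23 lay in the dim range of the array. Dbp, a transcription factor at the output of the clock, read 9.53, 10.47, 10.29, 10.16 and 8.66 against 6.96, 6.72, 5.80, 7.94 and 7.67, a fall of 2.80 (SE 0.38). Per1 read 8.30, 8.53, 8.52, 8.51 and 8.34 against 6.93, 6.92, 6.73, 6.94 and 7.05, and fell by 1.52 (SE 0.09, adjusted p = 2.57e-06). Its partner Per2 fell by 1.92 (SE 0.23), and Tef and Hlf, relatives of Dbp, by 0.94 (SE 0.12) and 0.68 (SE 0.09). Npas2 and Arntl, activators of the clock and named here as the 2 members that were higher, rose by 3.54 (SE 0.89) and 1.20 (SE 0.29), and 1 of the list was called higher without CL + VE replicate 1 or 3. The hour at which each liver was taken is not given in the sources used here.

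Other metabolic genes fell far. Ppp1r3g, which targets a phosphatase to glycogen and is known to rise on feeding, read 8.39, 9.69, 7.33, 8.54 and 7.25 in NC and 3.88, 3.76, 5.49, 3.96 and 3.85 in CL + VE livers. It fell by 4.05 (SE 0.43, adjusted p = 9.69e-05), 16.6-fold. Asns, asparagine synthetase, a target of the ATF4 stress factor, read 6.42, 8.99, 8.85, 8.53 and 6.76 against 4.27, 3.93, 4.72, 5.10 and 4.99. Asns fell by 3.31 (SE 0.46, adjusted p = 0.000566), although NC replicates 1 and 5 lay well under the other chow livers. In the list of the unfolded protein response and ATF4, 3 of 30 were lower, Asns among them, and none higher (median -0.02). The count was 1 without CL + VE replicate 1 or 4 or NC replicate 1 or 4 and with no scaling, and the stress markers Ddit3 and Hspa5 gave 0.29 and -0.07 without a call. Igfbp1, a binding protein of insulin-like growth factors that insulin represses, fell by 1.22 (SE 0.14, adjusted p = 0.000135).

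After quantile normalization, translation and energy genes were close to the all-gene median, but their medians and counts followed the scaling. With 1 scaling factor per array the median was -0.15 for translation initiation, -0.27 for respiratory chain and -0.29 for ribosomal protein genes. Translation initiation genes were lower in 5 of 32 and higher in none (median -0.04). With median centring 9 were lower and with no scaling 0, and the count fell to between 1 and 3 without CL + VE replicate 2, 3, 4 or 5 or NC replicate 2, 3 or 4. Akt2, a kinase of insulin signaling kept with that list, read 8.52, 8.65, 8.62, 8.67 and 8.52 in NC and 8.35, 8.36, 8.29, 8.34 and 8.12 in CL + VE livers. The difference was small but without overlap (-0.30, SE 0.08, adjusted p = 0.0256). With no scaling it was -0.12 and not called (adjusted p = 0.755), and the adjusted p lay between 0.052 and 0.063 without CL + VE replicate 3 or 5 or NC replicate 2, 3 or 4. Respiratory chain genes were lower in 6 of 56 (median -0.07), but in 25 of 56 (median -0.27) with median centring and in 0 with no scaling. Ndufa5, a subunit of complex I, fell by 0.45 (SE 0.08, adjusted p = 0.00254). For ribosomal protein genes, 1 of 30 was lower (0 without CL + VE replicate 2 or 4 or NC replicate 2 or 3), 10 were lower with median centring and 0 with no scaling.

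Of the genes of antioxidant defense, 7 of 28 were higher and none lower (median 0.15). Hmox1, heme oxygenase 1, which macrophages and hepatocytes make under oxidative load, read 5.55, 6.05, 6.91, 6.54 and 5.78 in NC and 8.11, 7.34, 7.60, 7.00 and 7.81 in CL + VE livers. It rose by 1.41 (SE 0.25, adjusted p = 0.00316), with the nearest values of the groups at 6.91 and 7.00. Nfe2l2, the factor that switches on many of these enzymes, rose by 0.70 (SE 0.11), and the glutathione transferases Gsta4 and Gstm1 by 1.20 (SE 0.18) and 0.82 (SE 0.12). The classical antioxidant enzymes Sod1, Sod2, Cat and Gpx1 gave -0.17, -0.18, 0.16 and 0.01, none called. With median centring, 6 of the list were higher and 4 lower.

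Ttpa, the tocopherol transfer protein, read 13.06, 12.74, 12.89, 12.85 and 12.87 in NC and 13.10, 13.12, 13.10, 12.93 and 13.05 in CL + VE livers, a difference of 0.18 (SE 0.07, adjusted p = 0.155) that was -0.15 with median centring. Cyp4f14, a hydroxylase that starts the breakdown of tocopherols in mice, gave 0.08 (SE 0.15, adjusted p = 0.821). Of 15 measured genes that handle vitamin E, 3 were higher and 3 lower. The lower count was 1 without CL + VE replicate 1, 4 or 5 or NC replicate 2, 3 or 4, and 0 with no scaling. Scarb1 and Abca1, which also move tocopherol, are 2 of the 3 that rose, and the third is Cyp4f18, a leukocyte enzyme, which read 1.17, 1.22, 2.53, 0.43 and 1.18 against 5.02, 4.81, 4.42, 3.88 and 5.89 (3.50, SE 0.50). Cyp4f18 lay in the dim range of the array (mean 3.05). The other of its 2 probe sets went the opposite way, and the mean over both was 1.35. Sec14l4, a relative of the tocopherol-associated protein, fell by 0.55 (SE 0.11).

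Among 29 drug-metabolizing P450 genes, 4 were higher and 3 lower. The counts were 1 and 1 without CL + VE replicate 2 or NC replicate 4, 1 was lower without CL + VE replicate 1, 4 or 5 or NC replicate 2 or 3, and 0 were lower with no scaling. Cyp1a2, a pericentral enzyme, read 11.93, 11.65, 11.46, 11.43 and 11.59 in NC and 12.14, 12.40, 11.93, 12.21 and 13.36 in CL + VE livers (0.80, SE 0.21, adjusted p = 0.0266), with an adjusted p of 0.053 to 0.064 without CL + VE replicate 2 or NC replicate 2, 3 or 4 and of 0.135 with median centring. Rhbg, a pericentral ammonia transporter, fell by 1.47 (SE 0.23). Acute phase genes were higher in 5 of 22 (1 of 22 with median centring or no scaling, and 3 without CL + VE replicate 1, 2 or 3 or NC replicate 2, 3 or 4), and their mean split the chow livers, with 10.11 and 10.30 in NC replicates 1 and 5 and 11.75 to 11.87 in the others, around the 11.28 to 11.48 of the CL + VE livers. Saa1, serum amyloid A, picked out as an example of that split, read 10.67, 13.66, 13.49, 13.53 and 9.82 in the NC livers. Cell death genes were higher in 10 of 23 with none lower, among them Casp12 (1.11, SE 0.20) and the survival factor Mcl1 (0.72, SE 0.08), and cell cycle genes in 3 of 26 (6 with the replicate number as a block), led by Ccnd1, cyclin D1 (1.36, SE 0.26). Slc4a1, the anion exchanger of red cells, fell by 2.98 (SE 0.52), from 5.17 to 6.61 in NC to 1.55 to 4.87 in CL + VE livers, and Alas2, which red cell precursors need for heme, by 0.72 (SE 0.15).

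Whether the CL + VE livers differed from livers on the CL diet alone was asked in a model of all 20 arrays, and these values share the CL + VE arrays with those above. No probe set was called (limma, smallest adjusted p = 0.121), while 3412 probe sets (7.58%) had an unadjusted p under 0.05, and at that level 7.49% of genes. Among the 151 named genes called in CL + VE against NC, 13 reached that level, so the share was near the background. Side by side, and with the same NC livers under both, Sqle was -2.96 in CL and -3.06 in CL + VE livers relative to NC, Cyp8b1 -2.71 and -2.40, Gpnmb 5.36 and 4.69, Cd74 3.16 and 2.93, and Col1a1 1.24 and 1.32. The 95% intervals of CL + VE minus CL were -0.71 to 0.51 for Sqle, -0.28 to 0.88 for Cyp8b1, -2.11 to 0.77 for Gpnmb, -0.88 to 0.42 for Cd74 and -0.70 to 0.86 for Col1a1. The absence of a call does not show that the groups were alike.

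The named gene with the smallest p in that comparison was Maf, a transcription factor of macrophages and hepatocytes, at 1.35 in CL and 0.80 in CL + VE relative to NC (difference -0.55, 95% interval -0.77 to -0.34, adjusted p = 0.121). Il1b differed by -0.79 (interval -1.21 to -0.37), Akt2 by 0.29 (0.16 to 0.43), Eif2ak1, the heme-regulated kinase of translation initiation, by 0.35 (0.15 to 0.54) and Sec14l4 by 0.37 (0.14 to 0.61). These 5 moved toward the chow level, whereas Ppara, at -0.43 in CL and -0.69 in CL + VE livers, moved away from it (-0.26, interval -0.47 to -0.04). Other named genes with an unadjusted p under 0.05 went both ways. Cyp1a2 (0.43), Angptl4 (-0.25) and Dnajb9 (-0.29) also moved away from the chow level. Eif3d (0.16), Eif3k (0.19) and Colec11 (-0.29) moved toward it. None passed the adjusted threshold, and these genes are given here for their small unadjusted p. In all, 15 named genes reached that level, and not all of them are listed. The same CL arrays set both the CL minus NC and the CL + VE minus CL differences. The direction relative to chow is therefore not independent of how these genes were picked.

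**Figure D5:**
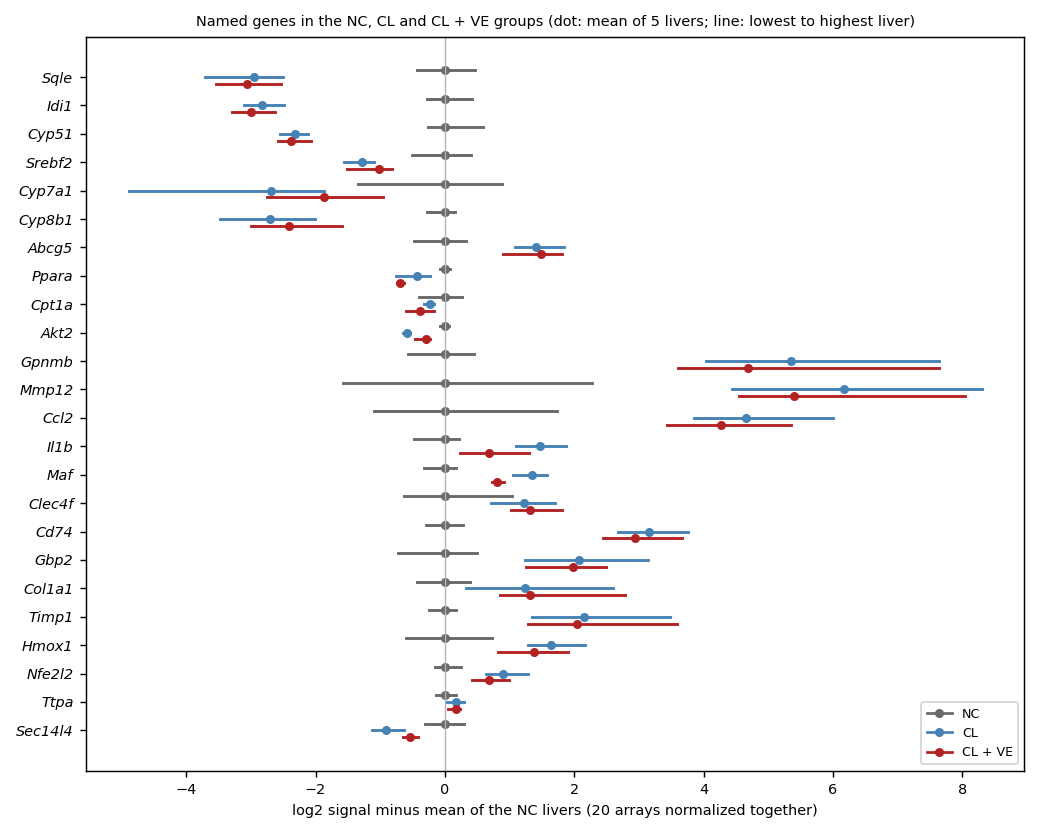
Mean (dot) and range from the lowest to the highest liver (line) of 24 named genes in the NC, CL and CL + VE groups, 5 livers each, as log2 signal minus the NC mean after all 20 arrays were normalized together. The CL and CL + VE ranges overlap for genes such as Sqle (means -2.96 and -3.06), and lie apart for Maf (1.35 and 0.80) and Akt2 (-0.59 and -0.30).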

How the data were processed

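RNA from each liver was hybridized to 1 Affymetrix Mouse Genome array. The authors deposited linear signal intensity values from the MAS5 method, not scaled to a common level, so differences in overall brightness had to be removed here. Signals were taken to log2, and the 10 arrays were quantile-normalized. After 64 control probe sets were left out, 45037 were tested with limma 3.58.1 in R 4.3.3 (lmFit and eBayes with trend, 8 residual degrees of freedom) and Benjamini-Hochberg adjustment. Of these, 34945 named 1 gene, 932 several and 9160 none. The brightest probe set stood for each of 18193 genes. Values for the CL group came from a model of all 20 arrays. The script was tested on simulated data. Depth has no counterpart on arrays, whose precision was limited by 5 livers a group: the median standard error was 0.38, and 0.17 at or above the median log2 signal of 3.93, under which probe sets are called dim. Exact permutation tests (two-sided) served the controls. Members and gene lists were chosen with earlier results of these data known. Genes were named by fixed rules on list membership and size of change, and others were picked after their values were seen, as marked. Replicates were separate mice. Promoters came from RefSeq (GRCm38.p6).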

Additional observations from a re-analysis of the deposited data

Results flagged for a closer look

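In 25 of 384 groups of 5 livers for the named genes (6.51%), 1 liver stood far from the other 4, where chance alone flags about 1 in 20. Of these, 11 were NC and 14 CL + VE groups, and 10 fell on CL + VE replicate 5 and 5 on NC replicate 5. All values are log2 signals.

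CL + VE replicate 5 was high for Gpnmb (11.02, others 6.89 to 7.62), Mmp12 (9.42, others 5.85 to 6.16), Ccr2 (6.98, others 5.32 to 5.67), Lpl (12.23, others 11.09 to 11.26) and H2-Aa (12.19, others 10.92 to 11.28). It was also high for Col1a1 (6.72, others 4.74 to 4.94), Sparc (9.88, others 8.88 to 8.99), Cdc20 (7.29, others 4.84 to 5.47), Steap4 (10.61, others 9.20 to 9.52) and Apoc2 (12.79, others 12.56 to 12.59). These are genes of macrophages, matrix, cell division and lipoproteins. Its Dap control ratio, 1.81, was also the highest of its group, and the part of array handling in these values was not tested.

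NC replicate 5 was low for Alas2 (8.68, others 9.16 to 9.35), Casp12 (4.49, others 4.80 to 4.89), Rhbg (6.03, others 7.20 to 7.38) and Slc1a2 (9.26, others 9.85 to 10.06), and high for Tnnt3 (2.46, others -0.21 to 0.51). Rhbg and Slc1a2 are both pericentral transporters.

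Among the other chow livers, Calhm6 was low in NC replicate 1 (-0.22, others 3.36 to 4.15), as was Ndufa5 (10.91, others 11.02 to 11.05). Cyp51 was high in NC replicate 2 (8.89, others 8.03 to 8.27), and Ms4a1 in NC replicate 4 (4.09, others 2.89 to 3.24). Car3 (12.44, others 13.25 to 13.50) and Ccr2 (1.81, others 3.37 to 3.65) were low in NC replicate 3. In CL + VE livers, Srebf2 was low in replicate 2 (5.08, others 5.68 to 5.78) and Nr1i3 high there (9.69, others 9.13 to 9.28). Ppp1r3g was high in replicate 3 (5.49, others 3.76 to 3.96), and Cyp39a1 low in replicate 4 (8.25, others 8.83 to 9.06).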

How the results depend on the processing

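The called probe sets, 2204 higher and 1933 lower, became 1069 and 801 without the intensity trend, and 392 were lower with no scaling. The methods' t-test (Welch) gave 826 higher and 823 lower after Benjamini-Hochberg adjustment and 4339 and 4604 at an unadjusted p under 0.05. The paper describes its p-values as corrected and also used a Welch ANOVA, which was not run here. Leaving out 1 liver at a time gave 1667 to 2455 higher and 1429 to 2104 lower. For CL + VE against CL, 0 probe sets were called, 3412 at an unadjusted p under 0.05, with 3 from the arrays of those groups alone, 26 with no scaling, 3 with the replicate block and 0 to 2 when 1 liver was left out (2 without CL + VE replicate 5). The replicate block gave 2145 higher and 1857 lower. Same-numbered livers did not deviate together (r from -0.029 to 0.113, only number 5 correlating best with its own), so the numbers do not pair the livers. Among called genes, directions turned for Cyp2a12 (-0.012), Fgb (-0.017) and Fgg (-0.11) with median centring, for Fgg (-0.023) with trimmed-mean scaling and for Pycard (-0.18) with the mean of all its probe sets. Why these values moved was not tested. Of 192 named genes, 153 kept direction and side of the threshold with no scaling and 174 with median centring. Dim signal limits genes such as Mmp12, Ccl2 and Tnf.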
